A study of Mus musculus with 157 samples.

Results

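The T cell receptor alpha variable segments (Trav) are the gene pieces from which a developing T cell builds the variable portion of its receptor alpha chain. All 128 rows whose symbol begins with Trav and a digit were taken from the 50686 gene rows present in both deposited tables. No measured value decided which rows entered, but the family was chosen with earlier results of these data known. Of these, 108 are annotated as variable genes and 20 as pseudogenes, and 10 carry a second, delta-chain name (dv). The segments lie on the plus strand of chromosome 14 between 52427928 and 53977678 (GRCm38), and the constant gene Trac lies beyond them at chr14:54220521-54224206, so that segment starts are 243 to 1793 kb from Trac. Symbols marked d or n are copies of a segment elsewhere in the locus, and 40 sets of such copies hold 111 of the 128 segments. Trav3d-2, Trav3n-2 and Trav15n-3 had no count in either table.

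The alpha chain is assembled by V(D)J recombination, in which the RAG1 and RAG2 proteins join 1 variable segment to 1 joining segment (Traj), and the joined exon is spliced to Trac. The first joins use variable segments near Trac and joining segments far from it, and further joins on the same chromosome replace them with pairs farther apart, which is why position along the locus is a standard measure. The delta chain genes lie inside the same locus and share the dv segments, and invariant natural killer T (iNKT) cells are defined by the join of Trav11 to Traj18.

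The series holds bulk RNA-seq of mouse thymus and thymic lymphoma, 157 libraries in 23 groups, in an earlier run of 81 libraries and a later run of 76. In the series' terms, Cdc20 +/D animals are controls and Cdc20 D/AAA animals are the aneuploid model. The D allele is in every group except the p53(-/-) tumour, and the labels do not explain the allele names, the RERT2, LCK and CD4 prefixes or MYCChr6, and give no age or strain. Libraries are numbered within each group in accession order. The earlier run has RERT2-Cdc20(+/D) cells sorted as DN1 (6 libraries), DN2 (8), DN3 (8), DN4 (8) and DP (7), and RERT2-Cdc20(D/AAA) cells sorted as DN1 (9), DN2 (1), DN3 (5), DN4 (6) and DP (11). DN and DP denote the CD4 CD8 double-negative and double-positive stages of thymocyte development. Early tumours of RERT2-Cdc20(D/AAA) animals are in this run too, of which 5 were DP-sorted and 7 unsorted. The later run has unsorted thymus of +/D (6), D/AAA (9), +/D with MYCChr6 (2) and D/AAA with MYCChr6 (3), all RERT2. Its tumours are RERT2-Cdc20(D/AAA) alone (22), with p53(+/D) (10) or with MYCChr6 (3), LCK-Cdc20(D/AAA) with MYCChr6 (14), LCK-Cdc20(+/D) with MYCChr6 (4), CD4-Cdc20(D/AAA) with MYCChr6 (2) and p53(-/-) (1).

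A few sequences are shown because the results turn on them. Each is the annotated coding part (GENCODE M21), 5′ to 3′, or its last 300 bases where it is longer, with the GRCm38 span of its gene. Trav11 (chr14:53519303-53519859) and the joining segment Traj18 (chr14:54200777-54200842) led every usable DN1 library once Trav11 was summed with its copy Trav11d (chr14:52824357-52824912). The capital in Trav11 is its last annotated base, which the annotated coding part of Trav11d, 342 bases long, does not include, and the rest is identical.

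Trav11: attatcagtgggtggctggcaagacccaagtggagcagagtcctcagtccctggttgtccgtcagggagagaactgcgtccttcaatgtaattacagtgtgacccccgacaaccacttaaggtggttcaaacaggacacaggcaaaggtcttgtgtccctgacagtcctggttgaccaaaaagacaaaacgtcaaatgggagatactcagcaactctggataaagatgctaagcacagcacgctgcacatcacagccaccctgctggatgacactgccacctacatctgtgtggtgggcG

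Traj18: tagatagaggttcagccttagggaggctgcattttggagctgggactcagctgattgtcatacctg

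Trav17 (chr14:53806639-53807115), among the segments nearest to Trac, led many DN2 and DN3 libraries and has no d or n copy.

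Trav17: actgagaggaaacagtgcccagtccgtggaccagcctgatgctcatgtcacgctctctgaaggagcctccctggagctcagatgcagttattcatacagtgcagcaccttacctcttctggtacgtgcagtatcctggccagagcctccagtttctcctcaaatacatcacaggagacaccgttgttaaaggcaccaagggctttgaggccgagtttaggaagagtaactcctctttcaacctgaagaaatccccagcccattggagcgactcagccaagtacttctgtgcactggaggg

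Trav13n-1 (chr14:53162399-53162910) and Trav13d-1 (chr14:52851290-52851866) are copies that differ at a single base, given in capitals, and both led in a pair of LCK tumours together with the joining segment Traj31 (chr14:54187895-54187951).

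Trav13n-1: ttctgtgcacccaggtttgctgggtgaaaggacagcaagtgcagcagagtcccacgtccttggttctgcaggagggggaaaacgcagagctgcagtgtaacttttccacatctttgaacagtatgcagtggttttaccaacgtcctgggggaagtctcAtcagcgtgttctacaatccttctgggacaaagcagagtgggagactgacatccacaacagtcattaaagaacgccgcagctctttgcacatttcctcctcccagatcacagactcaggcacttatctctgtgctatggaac

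Trav13d-1: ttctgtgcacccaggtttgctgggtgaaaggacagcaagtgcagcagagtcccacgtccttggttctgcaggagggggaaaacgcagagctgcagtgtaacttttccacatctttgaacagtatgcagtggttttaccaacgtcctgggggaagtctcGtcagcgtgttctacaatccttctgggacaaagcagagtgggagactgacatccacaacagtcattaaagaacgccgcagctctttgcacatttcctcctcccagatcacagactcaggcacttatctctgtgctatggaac

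Traj31: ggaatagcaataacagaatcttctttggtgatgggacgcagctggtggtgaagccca

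Trav12n-3 (chr14:53240745-53241244) had the largest fitted decrease among segments in RERT2 D/AAA tumours against +/D thymus and has the same coding sequence as Trav12d-3.

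Trav12n-3: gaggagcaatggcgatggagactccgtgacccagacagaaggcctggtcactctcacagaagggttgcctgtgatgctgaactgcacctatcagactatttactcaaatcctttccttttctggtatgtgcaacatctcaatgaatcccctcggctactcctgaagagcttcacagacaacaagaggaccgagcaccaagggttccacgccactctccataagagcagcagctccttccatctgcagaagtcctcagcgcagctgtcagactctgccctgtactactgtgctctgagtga

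These likenesses limit what one row means. Of the 128 segments, 36 have an annotated transcript identical to all or part of another segment's, 56 have one within 3 bases, and 17 differ from every other by more than 20 bases. Identity was found for 18 of the 39 d segments, 15 of the 34 n segments and 3 of the 55 with neither letter. Reads from identical stretches cannot be assigned between copies. Besides, 34 segments in 17 pairs had the same count in all 157 libraries, so each of these pairs is 1 measurement printed on a pair of rows. Identity of the annotated transcripts did not settle which rows shared counts. Trav12d-1 and Trav12n-1 shared them yet differ by 3 bases, while the identical Trav12d-3 and Trav12n-3 had 1183 and 240 counts in the earlier run. The copies also follow position: the 43 segments farthest from Trac (the distal block) include 35 d copies, the middle 43 include 34 n copies, and the 42 nearest (the proximal block) include none.

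Total counts ran from 2701382 to 11595463 in the earlier run, apart from D/AAA DN1 8 with 21199, and from 1708619 to 8009572 in the later run. Shares of the Trav total were computed for the 155 libraries with at least 100 Trav counts, which had 102 to 7795 with a median of 1260. D/AAA DN1 8, with 1 Trav count, and the only D/AAA DN2 library, with 81, were below that limit. Nothing in the labels ties the libraries of a group to different animals, and the spread behind each p-value may therefore be technical. Trav counts per Trac count differed between the runs, and levels were therefore not compared across them, apart from a Trac limit set alike in both. The sorted DP label matched its markers, whose summed level in counts per 1000000 (CPM) was 9997 to 14762 in +/D DP and 118 to 238 in +/D DN1. The summed level of 12 iNKT markers was 6386 to 7621 CPM in +/D DN1 against 302 to 616 in +/D DN2, and the B cell sum was 6236 to 10007 against 391 to 27087, so RNA of such cells was present in the sorted DN1 libraries. LCK +/D MYCChr6 tumour 1 and LCK D/AAA MYCChr6 tumour 12, whose labels give different Cdc20 genotypes, had nearly the same segment usage and are described last.

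Across the sorted +/D stages, Trav RNA was lowest in DN2 and DN3 and rose in DN4 and DP, with DN1 at a level like that of DP. Summed Trav expression in +/D DN2 was 24.3 CPM at the lowest, 30.4 at the median and 38.7 at the highest, and in +/D DN3 it was 32.3, 39.6 and 52.8. It was 69.7, 97.2 and 121 CPM in +/D DN4, and 427, 545 and 768 in +/D DP. DN2 and DN3 overlapped, while every DN4 library was above both and every DP library above all DN4 libraries. The sum in +/D DN1 was 426, 596 and 677 CPM. In bulk RNA, a smaller share of cells with a transcript and less transcript per cell cannot be told apart.

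Trac followed another course. Its level was 0.906, 2.74 and 5.46 CPM in +/D DN2 and 2.99, 8.22 and 10.2 in +/D DN3, then 91.2, 105 and 146 in +/D DN4 and 520, 731 and 1106 in +/D DP (lowest, median and highest). Thus the DN2 and DN3 libraries held more Trav than Trac RNA in every library, while from DN4 on the levels were of like size.

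**Figure D1:**
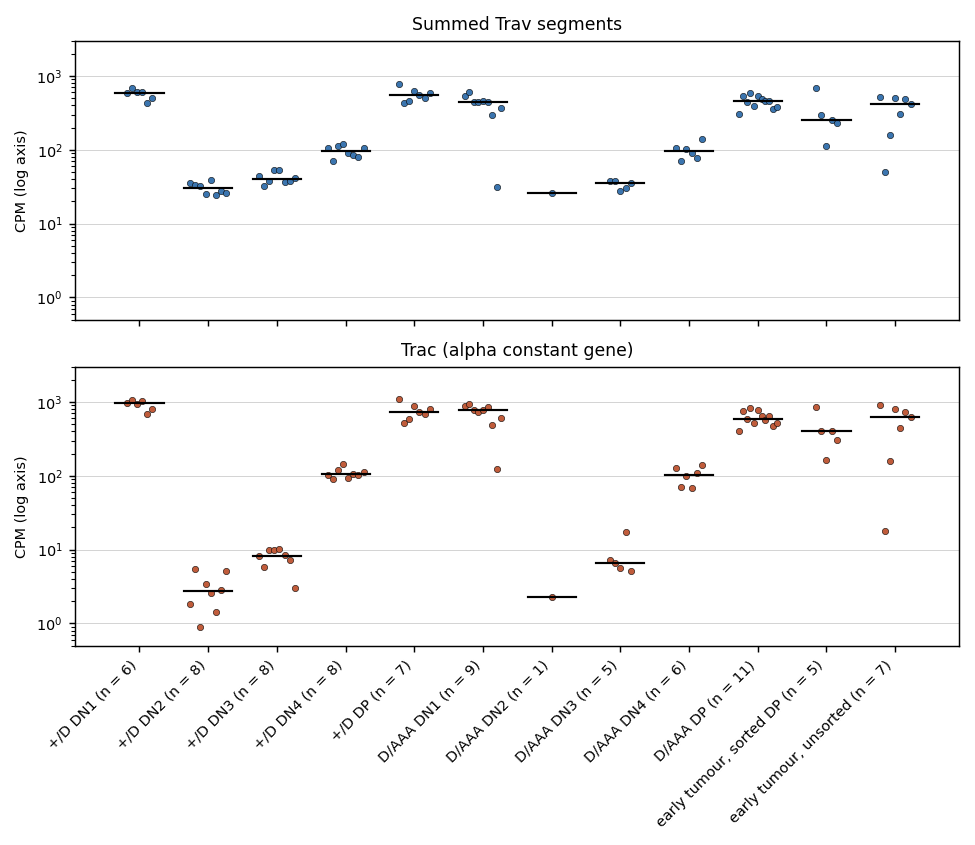
Summed Trav expression (one panel) and Trac expression (the other) in CPM on log axes for each library of the 12 groups of the earlier run; points are libraries and bars are group medians. In +/D DN2 and DN3 the Trav sums lie between 24.3 and 52.8 CPM while Trac stays at or below 10.2 CPM, and both are above 400 CPM in every +/D DP library.

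The number of segments in use was summarised by the effective number, the inverse of the summed squared shares, which equals the number of segments if all are used equally. It had a median of 2.57 in +/D DN1, 8.63 in +/D DN2, 10.8 in +/D DN3, 30.2 in +/D DN4 and 69.3 in +/D DP. The 7 DP libraries, at 67.7 to 73.1, lay above all 8 DN4 libraries, at 16.1 to 39.4. Between 100 and 111 segments had counts in each DP library and 18 to 33 in each DN2 library, where fewer Trav counts were available. With d and n copies summed, the medians were 6.33 in DN2, 14.9 in DN4 and 31.5 in DP, in the same order.

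**Figure D2:**
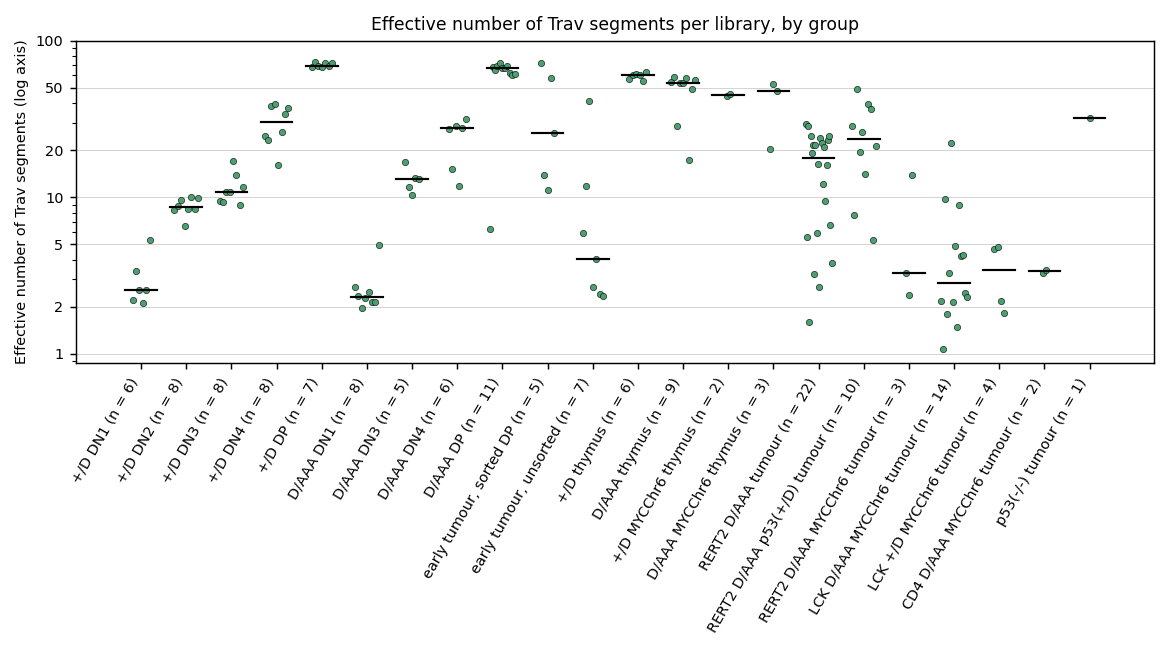
Effective number of Trav segments (log axis) in each library with at least 100 Trav counts, by group; points are libraries and bars are medians. The +/D DP libraries lie at 67.7 to 73.1 and the +/D thymus libraries at 55.7 to 62.9, and LCK D/AAA MYCChr6 tumours reach down to 1.08.

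From DN4 to DP most tested segments rose. In +/D DP against +/D DN4, 75 segments passed the low-count filter, 67 were higher, 1 was lower and the median log2 fold change was 3.18, against 0.06 over all genes (edgeR quasi-likelihood test, Benjamini-Hochberg adjusted over all genes). Over all 12272 genes tested, 55% were called, 28.7% higher and 26.3% lower. The filter lets a segment pass on counts in DP alone, so the number higher and the median depend on which segments could enter. Counting rows with the same counts once, 56 of 62 were higher and 1 lower, and with copies summed before the fit 37 rows were higher. Summing leaves fewer rows, and the number tested and the share of all genes called with it are not given here. By block, 17 of 20 tested distal segments were higher (median 3.29), 21 of 23 middle ones (3.12) and 29 of 32 proximal ones (3.24). Apart from distal Trav6d-6 with proximal Trav6-6, each pair of rows with the same counts joins a distal d copy with a middle n copy. The distal and middle values therefore repeat many of the same measurements.

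Trav1, the segment farthest from Trac at chr14:52427928-52428876, was at 6.86 ± 4.73 CPM (SD, n = 7, range 2.63 to 15.8) in DP and 0.339 ± 0.414 (n = 8, range 0 to 1.13) in DN4. The groups did not overlap, and the log2 fold change was 4.26 (SE 0.82, edgeR adjusted p = 0.000192). Trav7-5 was at 9.23 ± 1.37 CPM against 0.368 ± 0.48 (log2 fold change 4.56, SE 0.72, edgeR adjusted p = 2.12e-05), and the identical copies Trav4d-3 and Trav4n-3 rose by 4.84 (SE 0.66). Trav17, near the other end, was at 11.7 ± 3.77 CPM in DP and 2.09 ± 0.681 in DN4, a log2 fold change of 2.46 (SE 0.35, edgeR adjusted p = 5.7e-06).

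The segments with a delta name moved differently. Of 9 tested in DP against DN4, 4 were higher and 1 lower with a median log2 fold change of 0.17, whereas 63 of the other 66 were higher with a median of 3.26. The filter limit given above holds for both sets. Trav15-2-dv6-2 (chr14:53649404-53649994) fell: it was at 2.74 ± 1.68 CPM (range 0.197 to 4.65) in DP and 8.39 ± 3.36 (range 3.9 to 13.6) in DN4, groups that overlapped slightly, with a log2 fold change of -1.63 (SE 0.51, edgeR adjusted p = 0.0105). Trav6-7-dv9 rose by 3.21. The share of delta-named segments in all Trav counts had medians of 35.2% in +/D DN2, 38.4% in +/D DN3, 34.9% in +/D DN4 and 10.02% in +/D DP, and the highest DP library, at 12.2%, was below the lowest DN4 library, at 25.2%. The delta constant gene Trdc fell from a mean of 213 CPM in DN4 to 51.9 in DP (log2 fold change -2.05).

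Genes that act on the locus moved in the same comparison. Trac was at 756 CPM in DP and 110 in DN4 (log2 fold change 2.78), Rag1 at 459 and 30.4 (3.90), and Rag2 rose by 2.78. Dntt, which adds bases at the joints, rose by 0.86. Of 12 recombination genes 8 were higher and 2 lower, of 18 alpha locus and life span factors 12 were higher and 1 lower, and all 10 DP markers were higher. Dclre1c, which opens the hairpin ends, rose by 2.70, and Bcl2l1, a survival factor, by 3.03. The gamma chain constant genes Tcrg-C4, Tcrg-C2 and Tcrg-C1 fell by 5.24, 4.83 and 4.22 on the log2 scale. All 5 red cell genes were also lower in DP. Of 8 mature single-positive markers tested 7 were lower and 1 higher, and of 7 gamma delta T markers 6 were lower and 1 higher. The 9 iNKT markers tested were mixed, with 5 lower and 3 higher. The part of these other cells in the segment changes was not tested.

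In DN2 and DN3, a larger share of counts sat near Trac than in DN4 and DP. The 7 segments from Trav17 to Trav23 held 20.7% at the lowest, 30.6% at the median and 37.5% at the highest of the Trav counts in +/D DN2, and 14.97%, 29.2% and 42.6% in +/D DN3. Their share was 4.38%, 6.61% and 10.5% in +/D DN4 and 2.77%, 5.29% and 7.52% in +/D DP, so DN2 and DN3 lay wholly above DN4. In +/D DN1 it was 0.230%, 1.23% and 1.92%. Trav17 alone took a median of 23.7% in +/D DN2, 21.3% in +/D DN3, 1.94% in +/D DN4 and 2.17% in +/D DP.

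Trav15-2-dv6-2 came second in DN2 with a median of 17.8% and still had 8.31% in +/D DN4. Trav18, 389 kb from Trac, had a median of 5.53% in DN2. At the far end, the 8 segments from Trav1 to Trav6-2 held 2.36%, 3.503% and 5.87% in +/D DP. Of the 3 most distal segments with counts, Trav1 had a median of 1.07%, Trav2 of 0.502% and Trav3-1 of 0.460% in +/D DP, and of the 3 most proximal Trav21-dv12 had 1.88% and Trav22 and Trav23 had 0. No segment led DP clearly: the 2 highest medians were 2.54% for Trav3-3 and 2.21% for Trav7-4.

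**Figure D3:**
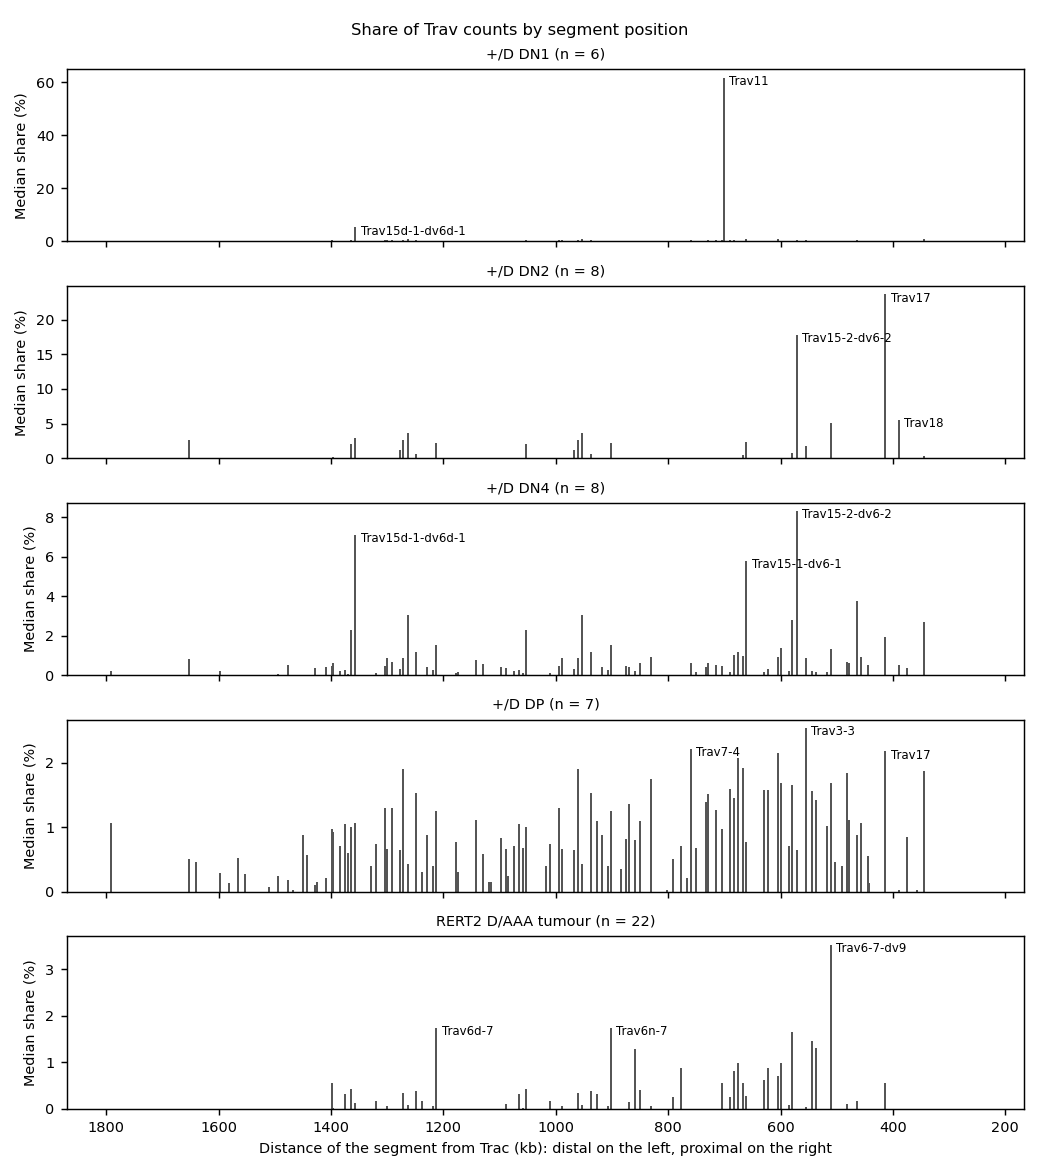
Median share of Trav counts (%) of each segment against its distance from Trac (kb, distal at the left) in +/D DN1, +/D DN2, +/D DN4, +/D DP and RERT2 D/AAA tumours; the y scales differ between panels. DN1 has a single tall bar at Trav11, 701 kb from Trac, DN2 has tall bars at Trav17 and Trav15-2-dv6-2, and in DP no segment is above 2.54%.

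In the libraries with low Trac, mostly DN2 and DN3, the share near Trac was high. The Trac limit of 20 CPM was chosen after the values were seen and set alike in both runs, whose levels were otherwise not compared. The 25 libraries with Trac below it comprised 21 from DN2 and DN3, 1 unsorted early tumour and 3 RERT2 D/AAA tumours. Segments Trav17 to Trav23 held 13.8% to 64.2% of their Trav counts, with a median of 29.5%, and 23 of the 25 were led by Trav17 or by Trav15-1 or Trav15-2 with copies summed. In the other 130 libraries the median was 3.17%, and 9 of them reached 13.8% or more. RERT2 D/AAA tumour 22, with Trac at 1.11 CPM, had Trav17 at 113 of 240 Trav counts, 47.1% (Wilson 95% interval 40.9 to 53.4, counting error only).

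Trav11 dominated DN1. Trav11 and Trav11d together held 52.8%, 61.9% and 68.4% of Trav counts in +/D DN1 (lowest, median, highest of 6) and 59.1%, 65.7% and 71.2% in the 8 usable D/AAA DN1 libraries. They held 0.292%, 1.06% and 1.64% in +/D DP and 0.399%, 0.918% and 1.40% in +/D thymus, so DN1 was far above both. With copies summed, Trav11 led 19 of the 155 libraries, namely these 14 DN1 libraries and unsorted early tumours 1, 4, 5, 6 and 7. In all 19, Traj18 led the joining segments, with 67.1% to 84.5% of Traj counts. A further 6 libraries were led by Traj18 with 6.14% to 14.5% and by another variable segment.

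Which copy received the counts differed between libraries. Trav11d took 0% of the pair's counts in most of the 19, 32.4% in +/D DN1 6, 61.9% in D/AAA DN1 9, 46.0% in unsorted early tumour 1 and all of them in unsorted early tumour 6. The copies are identical over the coding part annotated for both, and lie 701 and 1396 kb from Trac, so the split also moved the position measure: D/AAA DN1 9 had 39.1% of its counts in the proximal block against 65.95% to 79.8% in the other usable D/AAA DN1 libraries. Whether the split came from the animals or from read assignment was not tested.

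In +/D DN1 against +/D DN2, 20 segments passed the filter, 15 were higher and 1 was lower (edgeR), beside 49.8% of all 13189 genes tested, 25.7% higher and 24.1% lower. With equal rows counted once, 11 of 15 were higher and 1 lower, and the number higher was 62 with DESeq2 and 85 with no low-count filter, which test more segments. The shares of all genes called under those settings are not given here. The median log2 fold change of the 20 was 3.18, or 2.68 with the 5 segments at 0 in all DN2 libraries set to their bound, against 0.01 over all genes. Those 5 passed the filter through DN1 alone, and others could do so too. The number higher and the median depend on which segments could enter.

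Trav11 was at 332 ± 85.8 CPM (n = 6) in DN1 and had no count in any of the 8 DN2 libraries. It was at least 740-fold higher with a floor of 3 counts per library (edgeR adjusted p = 7.48e-11). This bound is for the Trav11 row alone. Reads cannot be assigned between Trav11 and its copy Trav11d over the part they share, and the pair's sum in DN2 is not given here. Trav15d-1-dv6d-1 (chr14:52863299-52863936) was at 33.2 ± 13.1 CPM against 0.893 ± 0.605 (log2 fold change 5.23, SE 0.52, edgeR adjusted p = 1.37e-07), and Trav21-dv12 rose by 4.47. Trav12-2 was at least 11.3-fold and Trav12d-3 at least 8.06-fold higher, the latter also without its identical copy Trav12n-3. Trav17 was the one that fell, from 6.88 ± 1.19 CPM (range 5.79 to 8.67) in DN2 to 0.642 ± 0.632 (range 0 to 1.55) in DN1, without overlap (log2 fold change -3.40, SE 0.75, edgeR adjusted p = 0.000897).

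The recombination genes went the other way from the Trav segments in this comparison: none of the 12 was higher in DN1 and 9 were lower, among them Rag1, at 0.520 CPM in DN1 and 49.6 in DN2, Rag2 (log2 fold change -5.65) and Dntt (-6.84). Trac was at 914 CPM against 2.96. Markers of other cells moved with Trav11: of 12 iNKT markers 10 were higher and 1 lower, of 8 mature single-positive T cell markers 7 were higher and 1 lower, and of 9 gamma delta T cell markers 5 were higher and 3 lower. B cell (5 of 7), dendritic (5 of 5) and myeloid (4 of 4) markers were also higher. Their part in the segment changes was not tested.

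No segment was called between genotypes in DN1, DP or thymus, and DN3 and DN4 were not tested between genotypes. In D/AAA DN1 against +/D DN1, 42 segments were tested and 0 called, with 0% of all 12822 genes called. Trav11 was at 242 ± 125 CPM (n = 9) against 332 ± 85.8 (n = 6), ranges that overlapped. Its log2 fold change was -0.33 (SE 0.30, edgeR adjusted p = 0.999987). The 9 include the shallow D/AAA DN1 8, with Trav11 at 0, and counts on Trav11d are left out. With both copies summed, the usable D/AAA DN1 libraries were at 202 to 391 CPM and +/D DN1 at 263 to 410. Leaving out D/AAA DN1 8 also gave 0 called segments. In D/AAA DP against +/D DP, 96 were tested and 0 called, beside 0.00803% of 12451 genes. In D/AAA thymus against +/D thymus, 84 were tested and 0 called, with 0% of 11044 genes called. DESeq2 gave 0 in these 3 comparisons, and 4, 3 and 4 segments had an unadjusted edgeR p under 0.05.

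The group values overlapped. Summed Trav expression was 309, 456 and 591 CPM in D/AAA DP against 427, 545 and 768 in +/D DP, and 70.8, 97.2 and 140 in D/AAA DN4 against 69.7, 97.2 and 121 in +/D DN4. The median log2 fold change of the tested segments was -0.47 in DN1, -0.29 in DP and -0.38 in thymus, against 0.00, 0.05 and 0.02 over all genes. The effective number was 66.7 in D/AAA DP and 54.0 in D/AAA thymus at the median, against 69.3 in +/D DP and 60.2 in +/D thymus.

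Single D/AAA libraries stood apart. In D/AAA DP 1, labelled as thymus and not tumour, Trav14-2 held 38.9% of Trav counts (Wilson 95% interval 36.8 to 40.9) and 42.5% with its copies, Traj49 held 43.9% of joining counts and Trbv15 held 58.4% of beta variable counts. Its effective number of 6.27 compares with 67.7 or more in every +/D DP library. D/AAA thymus 3 had Trav4-4 with its copies at 23.3%. None of the 13 +/D DP and +/D thymus libraries had a segment at 20% or more, copies summed.

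Early tumours sorted as DP ranged from even usage of many segments to usage led by 1 segment. Their effective numbers were 71.9, 13.9, 11.2, 57.5 and 25.9 in libraries 1 to 5, and summed Trav expression was 687, 293, 112, 256 and 233 CPM. The sum in library 1 lay above every D/AAA DP library and those of the other 4 lay below every one. Trav21-dv12 led library 2 with 24.4% (Wilson 95% interval 21.8 to 27.2). Trav13-3 with its copies led library 3 with 32.6% (28.4 to 37.2), where Traj26 held 74.1% of joining counts and Trbv19 98.9% of beta variable counts. The DP marker sum was 13079, 5462, 2972, 5294 and 3618 CPM, so libraries with less Trav also had less of these markers, whose part was not tested.

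Against D/AAA DP, 88 segments were tested and 0 called by edgeR, with 0% of 12245 genes called, 9 segments at an unadjusted p under 0.05 and 0 by DESeq2. The median log2 fold change was -0.72 over these segments and -0.07 over all genes. Without early tumour library 1, 8 segments were lower, among them Trav1 (edgeR adjusted p = 0.0098), which had no count in the other 4 and was at least 5.61-fold lower with a floor of 3 counts per library. The 0% of genes called belongs to the fit with library 1, and the share of genes called without it is not given here. With that library the value for Trav1 was -2.37 (SE 1.07).

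The unsorted early tumours fell into those led by Trav11 and the other two. Trav11 was at 157, 0, 0, 307, 152, 0 and 269 CPM in libraries 1 to 7, and Trav11d at 133, 0, 0.441, 0, 0, 318 and 0. Libraries 1, 4, 5, 6 and 7 were thus high in one or both copies, and libraries 2 and 3 were not. The pair's sum was 202 to 391 CPM in the usable D/AAA DN1 libraries and 263 to 410 in +/D DN1, so library 5 was below all of them. The iNKT marker sum was 8555, 325, 613, 7824, 4641, 7202 and 8234 CPM in the same order, high in the same 5 libraries. The leading beta variable segment was Trbv13-2 in 4 of the 5 and Trbv19, with 51.4%, in library 5.

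Against D/AAA DP, 71 segments were tested, 2 were higher and 27 lower by edgeR, beside 29.1% of 11904 genes, 15.9% higher and 13.2% lower. Counting equal rows once, 2 of 59 were higher and 23 lower, and DESeq2 called 4 higher and 53 lower. The share of all genes called with DESeq2 is not given here. The higher ones were Trav11d, at 64.5 ± 122 CPM (3 of 7 libraries with counts) against 2.97 ± 2.34 (log2 fold change 4.52, SE 1.35, edgeR adjusted p = 0.0168), and Trav15d-1-dv6d-1, at 17 ± 16.7 against 5.09 ± 2.23 (1.82, SE 0.53, edgeR adjusted p = 0.0129). Trav11 itself did not pass the low-count filter. A segment could pass through D/AAA DP alone, so the numbers higher and lower depend on which segments entered.

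Among the 27, Trav14-2 fell by 4.33 (SE 0.90, edgeR adjusted p = 0.00111), and by 3.41 without D/AAA DP 1, in which it led (log2 fold change -3.41, edgeR adjusted p = 0.00131). On the same scale Trav21-dv12 fell by 3.64, Trav19 fell by 3.62 and Trav17 fell by 2.22. The copies Trav4d-3 and Trav4n-3 had no count in any of the 7 and were at least 4.68-fold lower. Trac did not pass the test (log2 fold change -0.13), while Rag1 (-3.93) and Rag2 (-4.42) were lower and Dntt (-1.98) was not called. Of 10 DP markers 8 were lower, and of 9 iNKT markers 7 were higher and 1 lower. All 3 red cell genes tested were higher, and so were 5 of 6 B cell and 6 of 8 mature single-positive markers. Of 8 gamma delta T markers 6 were higher and 1 lower. Their part in the segment changes was not tested.

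In full tumours, compared with +/D thymus in the same run, more of the tested segments fell than rose. Of 80 tested in RERT2 D/AAA tumours (n = 22) against +/D thymus (n = 6), 0 were higher and 45 lower by edgeR, beside 41.5% of 12381 genes, 22.4% higher and 19.1% lower. With equal rows counted once, 36 of 68 were lower, and with copies summed 24 were. The number of summed rows tested, which is smaller, and the share of all genes called with them are not given here. The median log2 fold change was -2.43, against 0.05 over all genes. A segment can pass the filter through thymus alone, while one high in only a few tumours and not in thymus cannot pass. The numbers higher and lower and the median depend on this. Summed Trav expression was 15.1, 157 and 1046 CPM in the tumours (lowest, median, highest) and 534, 624 and 756 in thymus, so the tumour range enclosed that of thymus.

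Trav12n-3 had counts in 1 of 22 tumours and was at 0.138 ± 0.645 CPM against 10.6 ± 9.32 in thymus (log2 fold change -6.01, SE 0.88, edgeR adjusted p = 2.34e-06). Its identical copy Trav12d-3 had counts in 8 of 22 tumours and was at 1.82 ± 3.76 against 11.8 ± 9.44 (-2.73, SE 1.05, edgeR adjusted p = 0.0361), so either value depends on how reads were divided. Their sum was 1.96 ± 3.75 CPM (0 to 13.8) in tumours and 22.4 ± 5.69 (14.7 to 31.2) in thymus, without overlap. Trav6-5 was at 0.628 ± 1.18 against 14.4 ± 4.04 (-4.52, SE 0.77, edgeR adjusted p = 1.86e-05), and Trav7-2, which had the highest median share in +/D thymus at 3.93%, was at 1.75 ± 3.69 against 23.5 ± 4.79 (-3.79, SE 0.84, edgeR adjusted p = 0.000575). Trav1 fell by 2.97 (SE 0.97, edgeR adjusted p = 0.0136), a call lost with DESeq2 (adjusted p = 0.054). Trav6-7-dv9 was at 20.4 ± 60.6 CPM against 14.6 ± 2.49 (0.42, edgeR adjusted p = 0.785), with single tumours up to 284 CPM, and Trav17 had -1.60 (edgeR adjusted p = 0.15).

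By position, 20 of 26 tested distal segments were lower (median log2 fold change -2.73), 17 of 24 middle ones (-2.57) and 8 of 30 proximal ones (-1.63). The filter limit holds here too, and rows with the same counts are repeated between the distal and middle blocks. The proximal block held 40.4%, 44.6% and 46.7% of Trav counts in +/D thymus and 13.7%, 65.9% and 94.8% in RERT2 D/AAA tumours, a range that enclosed that of thymus. The distal end from Trav1 to Trav6-2 held 3.07%, 3.37% and 3.92% in +/D thymus and 0%, 0.0946% and 29.4% in RERT2 D/AAA tumours. The single p53(-/-) tumour was the reverse, with 3.31% in the proximal block, 63.7% in the distal block and 13.3% in the distal end. As the blocks differ in their share of d and n copies, position and copy type cannot be told apart between them. The distal end holds no d or n copy, and there the range in RERT2 D/AAA tumours enclosed that of thymus.

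Genes of the pathway also fell in these tumours. On the log2 scale Rag1 fell by 2.85, Rag2 fell by 3.15 and Dntt fell by 1.66, all 10 DP markers and 5 of 6 B cell markers tested were lower, and of 12 recombination genes 3 were higher and 5 lower. Trac had a log2 fold change of -1.10 and did not pass (edgeR adjusted p = 0.128). The part of these marker changes in the segment changes was not tested.

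Many tumours were led by 1 segment, and the leading segment differed from tumour to tumour. With copies summed, 35 of the 56 full tumour libraries had a segment at 20% or more of Trav counts and 20 had one at 50% or more. Among those 35 there were 18 different leading segments. The most frequent were Trav12-3 (5 tumours, 39.9% to 64.0%), Trav6-7 (5 tumours, 20.8% to 79.2%), Trav12-2 (4 tumours, 38.5% to 81.9%), Trav13-1 (3 tumours, 57.4% to 62.3%) and Trav9-4 (3 tumours, 20.4% to 82.4%).

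The share of led tumours varied by group. A segment at 20% or more was found in 11 of 22 RERT2 D/AAA tumours, 2 of 10 with p53(+/D), 3 of 3 RERT2 with MYCChr6, 13 of 14 LCK D/AAA with MYCChr6, 4 of 4 LCK +/D with MYCChr6, 2 of 2 CD4 D/AAA with MYCChr6 and not in the p53(-/-) tumour. A segment at 50% or more was found in 3, 0, 2, 10, 4, 1 and 0 of these. The group difference was not tested, since a score over the segments carries no test here.

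Single tumours show the extremes. In LCK D/AAA MYCChr6 tumour 2, Trav13-4-dv7 held 705 of 733 Trav counts, 96.2% (Wilson 95% interval 94.5 to 97.3). In LCK +/D MYCChr6 tumour 4, Trav10 with its copies held 94.8%, of which 69.4 percentage points were on Trav10n. In RERT2 D/AAA tumour 4, Trav6-7-dv9 held 770 of 975, 79.0% (76.3 to 81.4). Other tumours had a pair of high segments, here with copies summed: CD4 D/AAA MYCChr6 tumour 1 had Trav12-3 at 53.8% and Trav3-3 at 38.4%, and tumour 2 of that group had Trav7-5 at 39.1% and Trav8-1 at 35.5%. A T cell can carry a joined alpha locus on both chromosomes, and these counts do not tell whether such a pair came from 1 clone or several.

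**Figure D4:**
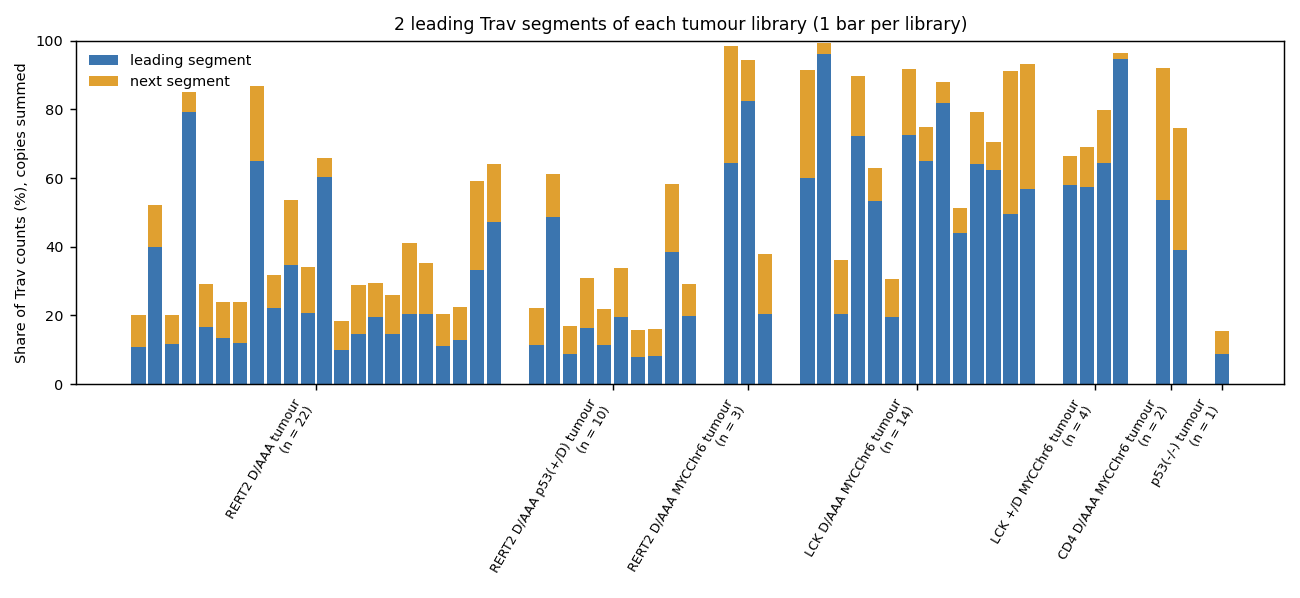
Share of Trav counts (%) in the leading segment and the next one, copies summed, stacked for each of the 56 full tumour libraries, by group. The leading bar reaches 96.2% in LCK D/AAA MYCChr6 tumour 2 and is below 20% in 21 of the 56.

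Trav11, dominant in DN1, led none of the 56 full tumours. It was the second segment of LCK D/AAA MYCChr6 tumours 1 and 5, with 31.6% and 9.77%, and their leading joining segments were Traj16 and Traj32.

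Tumours were also compared by p53(+/D) and by the LCK group with D/AAA. In RERT2 D/AAA p53(+/D) tumours against RERT2 D/AAA tumours, 29 segments were tested and 0 called by edgeR. This stood beside 1.29% of 11453 genes (0.742% higher, 0.55% lower). At an unadjusted edgeR p under 0.05 there were 3 segments, and DESeq2 gave 2 higher. For DESeq2 the share of all genes called is not given here. In LCK D/AAA MYCChr6 tumours against RERT2 D/AAA tumours, only 8 segments passed the filter, as most had counts in few tumours, and 1 was lower, beside 35.3% of 11130 genes, 18.6% higher and 16.7% lower.

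That segment was Trav6-7-dv9 (chr14:53709902-53710419), at 2.32 ± 4.91 CPM with counts in 6 of 14 LCK tumours and 20.4 ± 60.6 with counts in 21 of 22 RERT2 tumours, ranges that overlapped (log2 fold change -3.06, SE 0.99, edgeR adjusted p = 0.0148). The number lower was 10 with DESeq2, 4 with copies summed and 28 with no low-count filter. The numbers tested and the shares of all genes called under these settings are not given here, so these counts have no background beside them. Dntt (-3.01) and Ptcra (-6.32), the surrogate alpha chain of early thymocytes, were lower, and Trac (0.42) and Rag1 (-1.94) were not called. Of the markers of other cells, 6 of 8 mature single-positive and 4 of 6 myeloid ones were higher. All 6 B cell markers tested were higher too, with a summed level of up to 221420 CPM in LCK D/AAA MYCChr6 tumour 9, and their part was not tested. Summed Trav expression was 60.3, 235 and 683 CPM in LCK D/AAA MYCChr6 tumours.

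One pair of tumours shared its receptor segments across the genotype labels. LCK +/D MYCChr6 tumour 1 had Trav13n-1 at 43.1% (494 counts, Wilson 95% interval 40.3 to 46.0) and Trav13d-1 at 14.5% (166 counts). LCK D/AAA MYCChr6 tumour 12 had 44.2% (342 counts, 40.7 to 47.7) and 17.96% (139 counts). The intervals for Trav13n-1 overlapped. Traj31 held 16 of 33 and 24 of 37 joining counts, and Trbv15 held 1309 of 1387 and 1495 of 1585 beta variable counts.

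Among all 990 pairs of the 45 tumour libraries with enough counts of all 3 families, 53 shared the leading variable segment, 3 shared variable and joining segments, and this pair alone shared those and the beta segment. The cosine of the Trav shares was 0.9895. Over 7633 genes their log expression correlated at 0.929, and each was the other's nearest library. Cdc20 was at 64.7 and 42.6 CPM, Trac at 194 and 158 and Rag1 at 11.5 and 18.9. LCK +/D MYCChr6 tumour 2 also led with Trav13n-1 (39.2%) and Trav13d-1 (17.1%), but with Traj6 and Trbv13-3. Whether the pair comes from 1 tumour, or 1 genotype label is wrong, was not tested. Without either one of the pair, 34 of 55 tumours had a segment at 20% or more, 19 had one at 50% or more, and Trav13-1 led 2 instead of 3. The share of led tumours would be 12 of 13 in LCK D/AAA without tumour 12, or 3 of 3 in LCK +/D without tumour 1. Leaving tumour 12 out of the LCK comparison gave the same count of 1 lower segment.

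**Figure D5:**
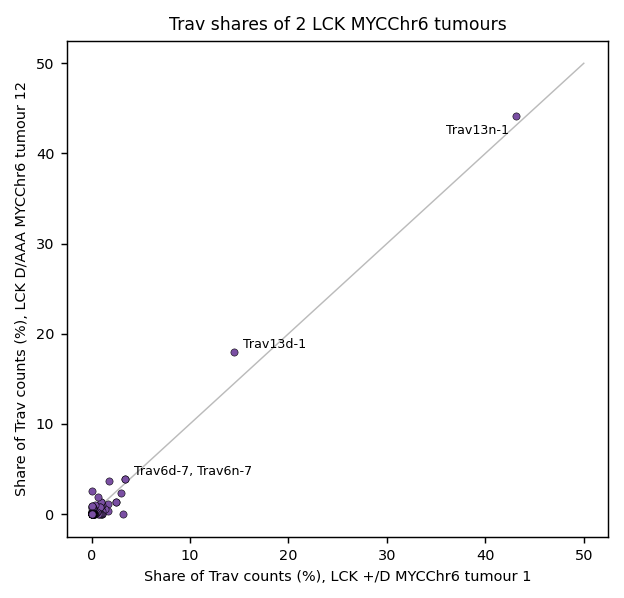
Share of Trav counts (%) of each segment in LCK +/D MYCChr6 tumour 1 (x axis) against LCK D/AAA MYCChr6 tumour 12 (y axis); the grey line marks equal shares. Trav13n-1, at 43.1% and 44.2%, and Trav13d-1, at 14.5% and 17.96%, lie near the line.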

How the data were processed

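The deposited values are RSEM expected counts per gene, which the authors made with STAR 2.5.3a and RSEM 1.3.0 on GRCm38, per the submitters' processing notes, and they were whole numbers in the files. The annotation release the authors used is not given in the sources used here, and segment positions and types come from GENCODE M21. RNA came from at least 5000 sorted cells, or from unsorted lymphoma cells, per the labels' protocols. RSEM divides reads that fit several copies by estimation, so d and n copies are uncertain.

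Each comparison was fitted on all genes of its 2 groups with edgeR 4.0.16 in R 4.3.3 (filterByExpr, TMM, robust quasi-likelihood, 2-sided, Benjamini-Hochberg over all genes tested, called under 0.05), after the code was tested on simulated data. DESeq2 1.42.0 was an alternative. CPM use the TMM-scaled total of a run, and shares need at least 100 Trav counts. The members and lists were chosen with earlier results of these data known. Segments named are Trav11, Trav11d, Trav1, the 3 most distal and 3 most proximal with counts, up to 10 called per direction and comparison, group leaders, and leaders of a library at 20% or more. Trav18, Trav15-1 and the second segments of single libraries were named after their values were seen. One gene of the pathway lists is not reported here by name. Intervals are Wilson 95% and cover counting error only.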

Additional observations from a re-analysis of the deposited data

Results flagged for a closer look

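In groups of 4 to 10 libraries, 9 of 70 combinations of group and measure had a highest or lowest library beyond Dixon's 95% limit. A rate of about 1 of 20 by chance holds only for independent, normally distributed values. These measures need not be so distributed, and several of them move together within a library. The 9 of 70 therefore cannot be set against that rate. D/AAA DN1 9 did so in 3 measures: its leading segment held 37% (others 59.1% to 71.2%), its proximal block 39.1% (65.95% to 79.8%) and its effective number was 5.00 (1.96 to 2.68), with its counts divided between Trav11 and Trav11d. The proximal block, the 42 segments nearest to Trac, held 47.3% in +/D DN3 5 (61.7% to 70.5%), 85.7% in D/AAA thymus 7 (37.0% to 58.1%), which has the fewest Trav counts of its group, and 78.8% in LCK +/D MYCChr6 tumour 3 (1.49% to 11.4%). The effective number was 41.1 in unsorted early tumour 3 (2.35 to 11.8), which had a red cell marker sum of 23290 CPM. Summed Trav expression was 827 CPM in RERT2 D/AAA p53(+/D) tumour 9 (73.4 to 304). Trav11 with Trav11d held 0.785% in LCK +/D MYCChr6 tumour 1 and 0% in the other 3 of its group. With the others all at 0, any value above 0 passes that limit by construction, so this one is no departure.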

How the results depend on the processing

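No paired analysis was possible because the labels give no replicate numbers. Each fitted log2 fold change of a named segment was checked once per alternative that applied to it. In 219 of these checks direction and side of the threshold were kept. The exceptions were Trav1 in the DN1 genotype comparison, 0.0869 with DESeq2 against -0.08, Trav1 in early DP tumours, which passed without library 1 (at 0 in the other 4, at least 5.61-fold lower), and 4 calls lost: Trav7d-3 in unsorted early tumours with no filter, and Trav1, Trav6d-5 and Trav7d-3 in tumours with DESeq2. The cause was not tested.

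Numbers of segments called moved by over 1.5 times as follows. With DESeq2 they were 62 higher and 2 lower in DN1 against DN2, 4 higher and 53 lower in unsorted early tumours, 2 higher with p53(+/D) and 10 lower in LCK tumours. With no low-count filter, which tests more segments, they were 85 higher and 2 lower in DN1 against DN2, 5 higher in unsorted early tumours, 2 higher with p53(+/D), and 12 higher and 28 lower in LCK tumours. With copies summed, which leaves fewer rows, they were 37 higher in DP against DN4, 24 lower in tumours against thymus and 4 lower in LCK tumours. Without +/D DN1 6, 2 were lower in DN1 against DN2. Leaving out 1 early DP tumour at a time gave 0 to 8 lower. The share of all genes called under each of these settings is not given here, so these counts have no background beside them.

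Summing copies changes the measures by construction, since the sum takes the position nearest to Trac. The median proximal share then became 96.37% in +/D DN1, 97.19% in DN2, 97.81% in DN3, 93.05% in DN4, 91.27% in DP, 86.24% in thymus and 93.97% in MYCChr6 thymus, and in D/AAA 96.71% in DN1, 97.84% in DN3, 91.07% in DN4, 88.7% in DP, 88.07% in thymus and 93.16% in MYCChr6 thymus. It was 96.04% in sorted and 94.82% in unsorted early tumours, and in full tumours 96.52% (RERT2), 93.87% (p53(+/D)), 88.89% (RERT2 MYCChr6), 96.64% (LCK D/AAA), 96.35% (LCK +/D), 99.29% (CD4) and 67.26% (p53(-/-)).

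The median effective number with copies summed was 6.331 in +/D DN2, 7.471 in DN3, 14.89 in DN4, 31.48 in DP, 28.69 in thymus and 26.39 in MYCChr6 thymus, and in D/AAA 8.006 in DN3, 16.36 in DN4, 30.12 in DP, 27.27 in thymus and 29.11 in MYCChr6 thymus. It was 2.638 in CD4 tumours (3.174 per exonic length), and 43.24 in +/D MYCChr6 thymus without pseudogenes. The median leading share with copies summed was 15.21% in +/D DN4, 5.996% in DP, 7.587% in thymus and 8.353% in MYCChr6 thymus, 14.61% in D/AAA DN4, 64.41% in RERT2 MYCChr6 tumours and 46.41% in CD4 tumours. Per exonic length it was 4.6% in +/D thymus and 40.65% in CD4 tumours. The Trav11 share of the p53(-/-) tumour became 1.442% with copies summed. Dividing counts by exonic length kept the leading segment in 125 of 155 libraries and in 64 of the 66 where it held 20% or more. Alternatives that leave out named libraries or divide by length were chosen after seeing the data.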
